A study of Mus musculus with 8 samples.

Results

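The genes described here are 9 enzymes of glycerolipid and triglyceride assembly, Dgat1, Dgat2, Gpam, Agpat2, Lpin1, Lpin2, Gpd1, Pck1 and Mogat1, which were listed by name, with earlier results of these data known. All 9 were found among the 37048 features quantified, and all 9 were among the 15185 genes with enough counts to be tested. The tissue was labelled epididymal white adipose tissue, the fat depot beside the gonads, from wild-type C57BL/6J mice described as female, although that depot is a male one. In the endostatin group, 4 libraries came from tissue taken 2 h after a tail vein injection of 50 mg/kg endostatin, a fragment of collagen XVIII known for inhibiting blood vessel growth. In the control group, 4 libraries came from tissue taken 2 h after an injection of the PBS vehicle. Food was withheld from both groups between injection and collection, and both carried the same genotype. Each group had libraries 1 and 2 in batch 1 and libraries 3 and 4 in batch 2. Neither the labels nor the design text give the age of the animals. The labels do not tie libraries to animals, and the design text gives 4 mice without saying whether that is per group, and every p-value here therefore reflects variation among libraries, part of which may be technical.

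Triglyceride is built on a glycerol-3-phosphate backbone. Pck1 supplies that backbone from non-glucose precursors (glyceroneogenesis), and Gpd1 makes it from the glycolytic intermediate dihydroxyacetone phosphate. Gpam adds the first acyl chain, Agpat2 adds the second to give phosphatidic acid, and the lipins Lpin1 and Lpin2 remove the phosphate to give diacylglycerol. Dgat1 and Dgat2, which are unrelated in sequence, add the last acyl chain. Mogat1 reaches diacylglycerol by another route, from monoacylglycerol. In white fat the pathway stores fatty acids, and in the fasted state glyceroneogenesis allows part of the fatty acids released by lipolysis to be esterified again.

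The windows before the annotated starts of Pck1 and Agpat2 are shown because these are the members that stood highest and lowest in the same library, endostatin 4, among those with an entry in the RefSeq promoter table. Each holds 250 bases upstream of the start in GRCm38.p6, the build of that table, written 5′ to 3′ on the gene's own strand, and capitals mark the motifs found. The Pck1 window is chr2:173152823-173153072 on the plus strand, and the Agpat2 window is chr2:26604418-26604667 on the minus strand.
Pck1: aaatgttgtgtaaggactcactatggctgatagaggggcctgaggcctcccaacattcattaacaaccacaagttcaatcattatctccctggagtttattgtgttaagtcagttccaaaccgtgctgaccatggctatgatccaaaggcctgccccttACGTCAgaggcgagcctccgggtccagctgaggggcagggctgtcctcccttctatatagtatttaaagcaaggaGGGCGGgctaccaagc
Agpat2: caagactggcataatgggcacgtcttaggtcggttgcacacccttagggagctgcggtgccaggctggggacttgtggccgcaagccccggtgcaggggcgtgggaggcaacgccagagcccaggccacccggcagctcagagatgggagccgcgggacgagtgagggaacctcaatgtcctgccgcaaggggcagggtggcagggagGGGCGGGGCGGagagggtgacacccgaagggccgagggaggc
The Pck1 window held ACGTCA, the core of the cyclic AMP response element, beginning 91 bases before the start, and a GC box GGGCGG beginning 16 bases before it. The Agpat2 window held GC boxes GGGCGG beginning 42 and 37 bases before the start, which share a base, and none of the other motifs searched. The search read both strands for the full cyclic AMP response element (TGACGTCA) and for its core (ACGTCA), which lies inside the full element. It also covered the E-box (CACGTG), the CCAAT box (CCAAT), the TATA box (TATAAA) and the GC box (GGGCGG). Of all 32851 windows of the same length in the table, 6.47% held the core, 1.55% the full element and 32.7% a GC box. Windows were found for 6 of the 9 members, 9 windows in all, and the core was also present before one of the Gpam starts, beginning 32 bases before it. A match is a run of letters and does not show that a factor binds there.

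The libraries held 17197721 to 23786594 estimated counts in the endostatin group and 15826783 to 19221886 in the control group. A count of 0 would allow up to 3 counts, or 0.126 to 0.19 CPM (counts scaled by library size) in a library, and every member was far above that floor. The 15 adipocyte markers were all detected, and their summed level was 45307 to 52301 TPM (transcript abundance corrected for length) in endostatin libraries and 30506 to 59541 TPM in control libraries, with control 3 the lowest. Markers of other cell types and tissues varied between libraries, and their part in the member levels was not tested. The 9 macrophage markers summed to 1138 to 2015 TPM in endostatin libraries and 896 to 1339 TPM in control libraries, with endostatin 3 and 4 above the other 6 libraries. The 9 fibroblast and progenitor markers summed to 2476 to 4289 TPM in endostatin libraries and 2057 to 3161 TPM in control libraries, with endostatin 4 the highest. All 9 log2 fold changes over both batches were positive in both lists. Within batch 1 the medians were near 0, at 0.022 for macrophage and 0.0063 for fibroblast markers. Within batch 2 they were 0.84 and 0.58. After adjustment 0 passed, and 3 macrophage and 2 fibroblast markers had an unadjusted p under 0.05. Of all tested genes, 2.3% had such a p as higher and 0.896% as lower. So did 9 of 15 tested hepatocyte markers (all 15 positive, median 3.62) and 1 of 7 endothelial markers as higher. As lower, 2 of 8 tested skeletal muscle markers and 1 of 6 tested brown fat markers had it, with all values negative in these lists. The adipocyte, kidney, and oviduct and uterus lists had 0, and no marker of any list passed after adjustment. The 7 endothelial markers summed to 352 to 395 TPM in endostatin libraries and 299 to 375 TPM in control libraries. The 12 skeletal muscle markers were highest in control 1 and control 4, at 256 and 498 TPM, and the 7 brown fat markers in control 3, at 532 TPM. The 16 hepatocyte markers summed to 22.5 to 1110 TPM in endostatin libraries and 14.6 to 154 TPM in control libraries, with endostatin 4 the highest and none of the 16 at 0 throughout. The 10 oviduct and uterus markers were high in endostatin 4 (658 TPM in sum) and control 3 (946 TPM), and the other 6 libraries had 20.1 to 62.2 TPM. Of the 8 kidney markers, 5 were at 0 in every library, and the sum was 84.5 TPM in control 3. In tissue measured in bulk, fewer cells of a type and less RNA per cell cannot be told apart.

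The 9 genes spanned a wide range of levels. Over the 8 libraries, mean TPM was 2157 for Pck1, 1637 for Dgat2, 625 for Agpat2, 612 for Gpd1, 309 for Dgat1, 275 for Gpam, 232 for Lpin1, 28.4 for Mogat1 and 15.7 for Lpin2. Several neighbours in this order were not separated. Pck1 exceeded Dgat2 in 5 of 8 libraries, Agpat2 exceeded Gpd1 in 4 of 8 and Dgat1 exceeded Gpam in 5 of 8. Dgat2 exceeded Agpat2, Lpin1 exceeded Mogat1 and Mogat1 exceeded Lpin2 in all 8 libraries. These gene sums include transcripts not annotated as protein coding. Such transcripts held 23.5% to 38.7% of Dgat1 TPM and 10.4% to 23.2% of Agpat2 TPM. They held at most 2.92% for Gpd1 and 1.81% for Gpam. The leading transcripts Agpat2-201 and Gpd1-201 averaged 499 and 598 TPM, the reverse of the gene sums. Dgat1-201, at a mean of 207 TPM, lay below the Gpam sum.

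**Figure D1:**
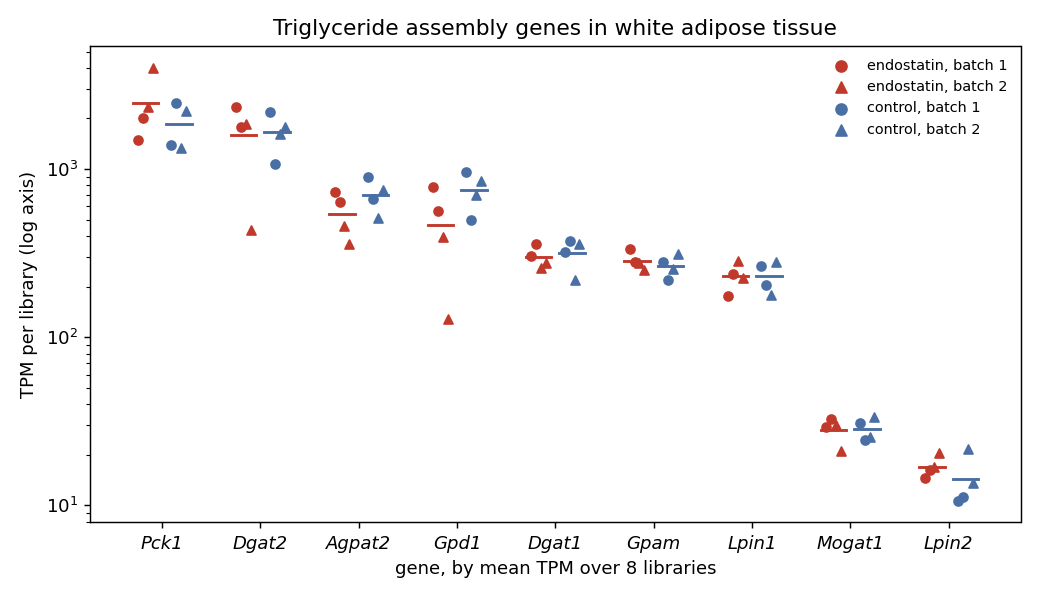
TPM of each gene in each library on a log axis, with endostatin in red left of control in blue, circles for batch 1, triangles for batch 2 and a bar at the group mean. The groups overlap for all 9 genes, and endostatin 4 sits apart at 433 TPM for Dgat2, 129 TPM for Gpd1 and 4014 TPM for Pck1.

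No member passed the test between endostatin and control. At an adjusted p under 0.05 (edgeR's quasi-likelihood test with batch as a term and Benjamini-Hochberg adjustment over all tested genes), 0 of 9 members were higher and 0 of 9 lower, and among all tested genes the shares were 0% higher and 0% lower. At an unadjusted p under 0.05, 0 of 9 were higher, against 2.3% of all tested genes, and 0 of 9 were lower, against 0.896%. The CPM ranges of the groups overlapped for 9 of 9 members, where 0.942% of all tested genes had endostatin wholly above control and 0.698% wholly below. Beside each fold change below stands its SE, with n = 4 per group, and the adjusted p was 1.00 (0.99985 before rounding) for all 9 members. Log2 fold changes were positive for 3 members and negative for 6, with a median of -0.13, and the median over all tested genes was -0.012. A p that misses the threshold does not show that levels were alike, and the intervals below give the range of differences the data allow. With DESeq2's Wald test 4 genes in all were called, and none was a member.

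**Figure D2:**
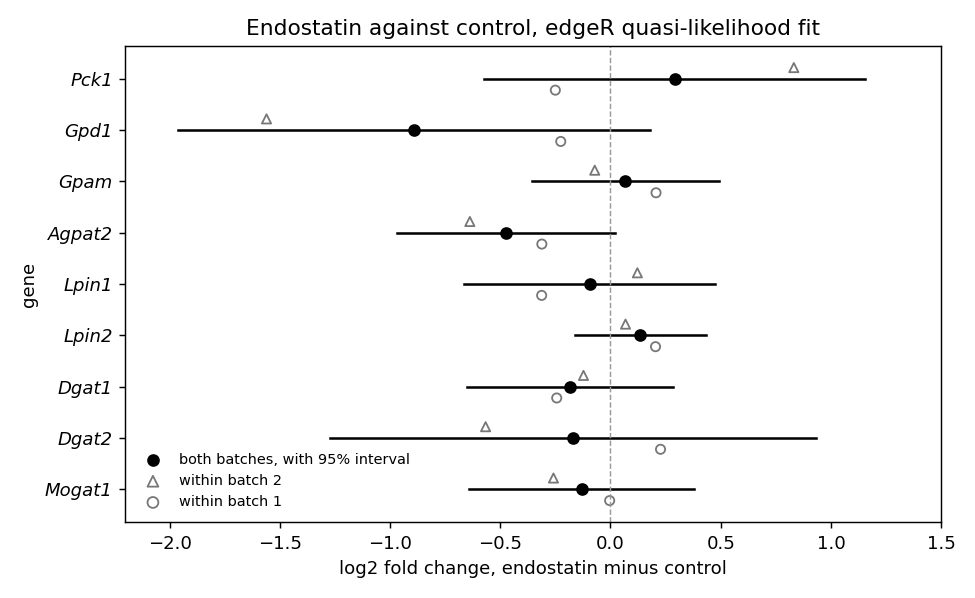
Log2 fold change of each gene, endostatin minus control: the filled point is the estimate over both batches with its 95% interval, the open triangle the value within batch 2 and the open circle the value within batch 1. All 9 intervals include 0, and the widest are those of Dgat2 (-1.27 to 0.93) and Gpd1 (-1.96 to 0.18).

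Pck1 (ENSMUSG00000027513), the cytosolic phosphoenolpyruvate carboxykinase, stood at 1483, 2005, 2338 and 4014 TPM in endostatin libraries 1 to 4, against 1384, 2485, 1336 and 2211 TPM in control libraries 1 to 4. Endostatin 4 was the highest of the 8 and control 3 the lowest, and the other endostatin libraries lay inside the control range. The fitted log2 fold change was 0.29 ± 0.37 (SE; 95% interval -0.57 to 1.16; edgeR adjusted p = 1.00; n = 4 per group), and it was 0.83 within batch 2 and -0.25 within batch 1. Without endostatin 4 the log2 fold change of Pck1 was 0.016, and without control 3 it was -0.0037. Pck1 is also highly expressed in liver, and the hepatocyte marker sum was 371, 570, 22.5 and 1110 TPM in endostatin libraries 1 to 4, against 154, 106, 14.6 and 22.6 TPM in control libraries 1 to 4. The part of that RNA in the Pck1 level was not tested.

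Gpd1 (ENSMUSG00000023019), the cytosolic glycerol-3-phosphate dehydrogenase, stood at 787, 563, 393 and 129 TPM in endostatin libraries 1 to 4, against 967, 501, 700 and 855 TPM in control libraries 1 to 4. Endostatin 3 and 4 lay below every control library, while endostatin 1 and 2 lay inside the control range. The log2 fold change of -0.89 ± 0.46 (95% interval -1.96 to 0.18; edgeR adjusted p = 1.00) had the largest size among the members. Within batch 2 it was -1.56 ± 0.59 and within batch 1 it was -0.23 ± 0.58. The difference between those values was itself tested as an interaction and was -1.33 ± 0.82 (edgeR adjusted p = 0.997). Without endostatin 4 the log2 fold change of Gpd1 was -0.51. In 2 of 21 alternative analyses its unadjusted p was under 0.05, and in none did it pass after adjustment. The macrophage marker sum was 1948 and 2015 TPM in endostatin 3 and 4, the libraries lowest in Gpd1, and 896 to 1339 TPM in the other 6 libraries, and its part in the Gpd1 level was not tested. Gpd1 made up 78.4% of the summed Gpd1 and Gpd1l TPM in endostatin 4, against 91.0% to 96.6% in the other 7 libraries.

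The acyltransferases that build phosphatidic acid varied less. Gpam (ENSMUSG00000024978), the mitochondrial glycerol-3-phosphate acyltransferase, stood at 333, 279, 275 and 251 TPM in endostatin libraries 1 to 4, against 280, 219, 254 and 311 TPM in control libraries 1 to 4. The groups lay over each other, and the log2 fold change was 0.068 ± 0.18 (95% interval -0.36 to 0.49; edgeR adjusted p = 1.00). Its highest CPM was 1.57 times its lowest, the second narrowest span of the 9 genes, next to 1.51 times for Lpin2.

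Agpat2 (ENSMUSG00000026922), whose loss in people causes congenital generalized lipodystrophy, stood at 726, 633, 457 and 357 TPM in endostatin libraries 1 to 4, against 902, 665, 511 and 746 TPM in control libraries 1 to 4. Batch 2 held the lowest library of both groups, and endostatin 3 and 4 lay below every control library. The log2 fold change was -0.47 ± 0.21 (95% interval -0.97 to 0.020; edgeR adjusted p = 1.00), the smallest p among the members. It was negative within both batches, at -0.64 in batch 2 and -0.31 in batch 1, and in all 21 alternative analyses, where it ran between -0.60 and -0.11. In 5 of those alternatives its unadjusted p was under 0.05 and in none did it pass after adjustment.

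The lipins differed in level. Lpin1 (ENSMUSG00000020593), the main adipose phosphatidic acid phosphatase, stood at 175, 238, 286 and 226 TPM in endostatin libraries 1 to 4, against 264, 205, 177 and 282 TPM in control libraries 1 to 4. The ranges nearly coincided, and the log2 fold change was -0.095 ± 0.25 (95% interval -0.67 to 0.48; edgeR adjusted p = 1.00), with 0.12 within batch 2 and -0.31 within batch 1. Lpin2 (ENSMUSG00000024052) stood at 14.6, 16.3, 16.8 and 20.4 TPM in endostatin libraries 1 to 4, against 10.7, 11.2, 21.7 and 13.6 TPM in control libraries 1 to 4. Every endostatin library was above 3 of the control libraries and below control 3. The log2 fold change was 0.14 ± 0.13 (95% interval -0.16 to 0.43; edgeR adjusted p = 1.00). The ratio of Lpin1 to Lpin2 TPM was 11.1 to 17.0 in endostatin libraries and 8.16 to 24.7 in control libraries, with control 3 the lowest.

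The enzymes of the last step had their lowest values in different libraries. Dgat1 (ENSMUSG00000022555), an acyltransferase of the endoplasmic reticulum, stood at 304, 358, 260 and 276 TPM in endostatin libraries 1 to 4, against 323, 374, 219 and 357 TPM in control libraries 1 to 4. Control 3 was the lowest of the 8, and the endostatin range lay between it and the highest control. The log2 fold change was -0.18 ± 0.20 (95% interval -0.65 to 0.28; edgeR adjusted p = 1.00). Without control 3 it was -0.38 (edgeR adjusted p = 0.806), and without control 4 it was 0.035.

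Dgat2 (ENSMUSG00000030747), which in mouse supplies most triglyceride synthesis, stood at 2337, 1787, 1858 and 433 TPM in endostatin libraries 1 to 4, against 2195, 1069, 1627 and 1790 TPM in control libraries 1 to 4. Endostatin 4 lay below every other library, and the other endostatin libraries all lay above control 2. The log2 fold change was -0.17 ± 0.48 (95% interval -1.27 to 0.93; edgeR adjusted p = 1.00), and without endostatin 4 it was 0.19. The ratio of Dgat2 to Dgat1 TPM was 7.68, 4.99, 7.16 and 1.57 in endostatin libraries 1 to 4, against 6.79, 2.86, 7.44 and 5.01 in control libraries 1 to 4.

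Mogat1 (ENSMUSG00000012187), the monoacylglycerol acyltransferase, stood at 29.3, 32.7, 30.1 and 21.0 TPM in endostatin libraries 1 to 4, against 30.9, 24.4, 25.4 and 33.7 TPM in control libraries 1 to 4. The ranges overlapped, with endostatin 4 the lowest by TPM, and the log2 fold change was -0.13 ± 0.22 (95% interval -0.64 to 0.38; edgeR adjusted p = 1.00).

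Endostatin 4 or control 3 was the lowest library by CPM for every member except Lpin2. By CPM, endostatin 4 was the lowest library for 3 members (Dgat2, Agpat2 and Gpd1) and the highest for Pck1. Control 3 was by CPM the lowest for 5 members (Dgat1, Gpam, Lpin1, Pck1 and Mogat1) and the highest for Lpin2. By TPM it was the lowest for Dgat1 and Pck1 only. The lowest by TPM was control 2 for Gpam (219 TPM), endostatin 1 for Lpin1 (175 TPM) and endostatin 4 for Mogat1 (21.0 TPM). Control 1 was by CPM the highest for 4 members (Dgat2, Agpat2, Lpin1 and Gpd1). By TPM it was so for Agpat2 and Gpd1 only, with endostatin 1 highest for Dgat2 (2337 TPM) and endostatin 3 for Lpin1 (286 TPM). Highest over lowest CPM was 8.61 for Gpd1, 5.83 for Dgat2, 3.33 for Pck1 and 2.84 for Agpat2.

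**Figure D3:**
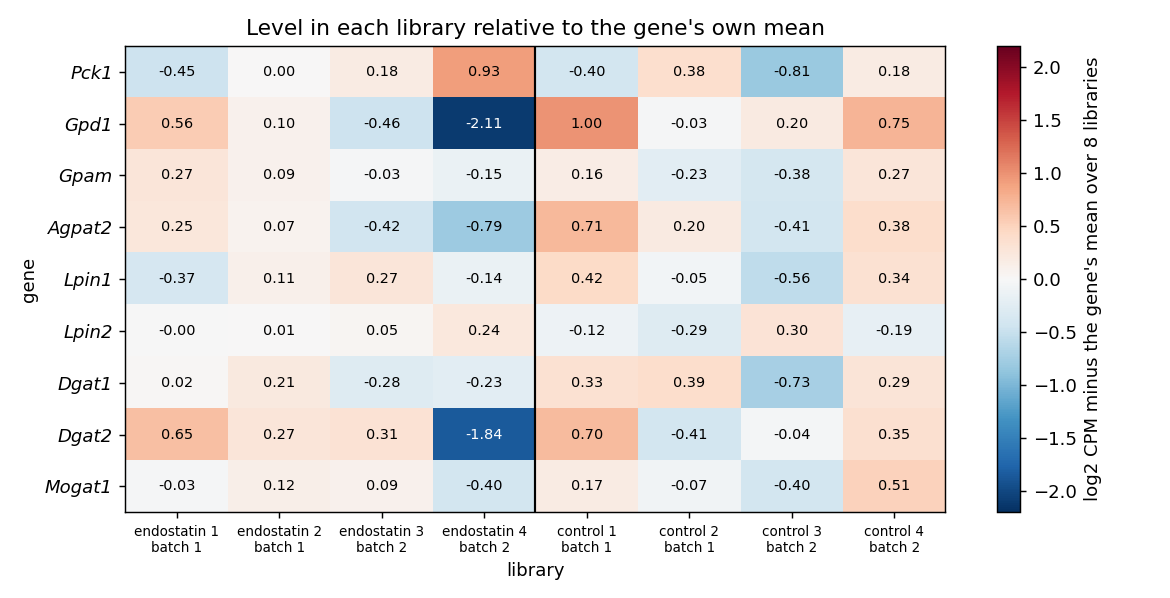
Log2 CPM of each gene in each library minus that gene's mean over the 8 libraries, with endostatin left of control. Endostatin 4 shows -2.11 for Gpd1 and -1.84 for Dgat2 beside 0.93 for Pck1, and control 3 shows -0.81 for Pck1 and -0.73 for Dgat1.

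In endostatin 4, Pck1 was high where Gpd1 and Dgat2 were low. The ratio of Pck1 to Gpd1 TPM was 31.2 in endostatin 4 and 1.43 to 5.95 in the other 7 libraries. The ratio of Pck1 to Dgat2 TPM was 9.26 in endostatin 4 and 0.630 to 2.32 in the others. Endostatin 4 is 1 library, so these ratios have no replicate check. The same library had the highest sums of hepatocyte (1110 TPM), fibroblast and progenitor (4289 TPM) and macrophage (2015 TPM) markers. Its oviduct and uterus marker sum was 658 TPM, second to control 3 at 946 TPM, against 20.1 to 62.2 TPM elsewhere. The part of these markers in the ratios was not tested.

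Set against the adipocyte markers, control 3 was no longer the lowest library for Dgat1 or Pck1. It became the highest of all libraries for Dgat1, Dgat2, Gpam, Lpin1, Lpin2, Gpd1 and Mogat1. Its adipocyte marker sum, the divisor here, was the lowest, at 30506 TPM, against 45307 to 59541 TPM in the other libraries. Per 1000 TPM of adipocyte markers, Dgat1 was 7.17 TPM in control 3 and 6.00 to 6.37 TPM in the other control libraries. Endostatin 2 was nearly level with control 3 for Dgat1, at 7.17 TPM. Pck1 in control 3 was 43.8 TPM on this scale, against 27.1 to 42.4 TPM in the other controls, so the lowest library by CPM was the highest control here. Lpin2 was 0.712 TPM in control 3 and 0.191 to 0.390 TPM in the other 7 libraries. In endostatin 4, Pck1 was 76.7 TPM on the marker scale, against 27.1 to 46.0 TPM elsewhere. Gpd1 was 2.46 TPM, against 7.73 to 22.9 TPM elsewhere, and Dgat2 was 8.29 TPM, against 18.2 to 53.3 TPM elsewhere. The divisor of endostatin 4 was 52301 TPM, inside the 45307 to 59541 TPM of the libraries other than control 3. Division by it could therefore move these values little.

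The composition of each enzymatic step was also compared, as the percent of a family's summed TPM held by the member. Dgat2 held 80.1% ± 12.9 of the Dgat1 and Dgat2 total in endostatin libraries and 83.2% ± 6.40 in control libraries (SD, n = 4 each; two-sided exact permutation p = 0.80), with 61.1% in endostatin 4. Agpat2 held 61.1% ± 8.25 of the Agpat1 to Agpat5 total in endostatin libraries and 67.4% ± 4.79 in control libraries (SD, n = 4 each; exact permutation p = 0.229). Gpam held 54.7% ± 4.04 of the glycerol-3-phosphate acyltransferase total in endostatin libraries and 51.7% ± 6.44 in control libraries (SD, n = 4 each; exact permutation p = 0.457).

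Shares were higher for the enzymes that dominate their step. Pck1 held 98.9% ± 0.0586 of the Pck1 and Pck2 total in endostatin libraries and 98.6% ± 0.598 in control libraries (SD, n = 4 each; exact permutation p = 0.400). Lpin1 held 89.7% ± 1.97 of the lipin total in endostatin libraries and 90.7% ± 4.97 in control libraries (SD, n = 4 each; exact permutation p = 0.743). Gpd1 held 89.7% ± 7.74 of its total in endostatin libraries and 95.3% ± 1.26 in control libraries (SD, n = 4 each; exact permutation p = 0.171). Over the 8 shares tested the adjusted p-values were 0.914 to 0.971, and the smallest p this design allows is 0.0286. These permutations exchanged libraries across batches and took no account of batch. Endostatin minus control, in percentage points, the Gpam share differed by -1.81 in batch 2 and 7.83 in batch 1, the Gpd1 share by -10.7 in batch 2 and -0.431 in batch 1, and the Dgat2 share by -11.3 in batch 2 and 5.26 in batch 1. The Agpat2 share differed by -9.96 points in batch 2 and by -2.72 points in batch 1.

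**Figure D4:**
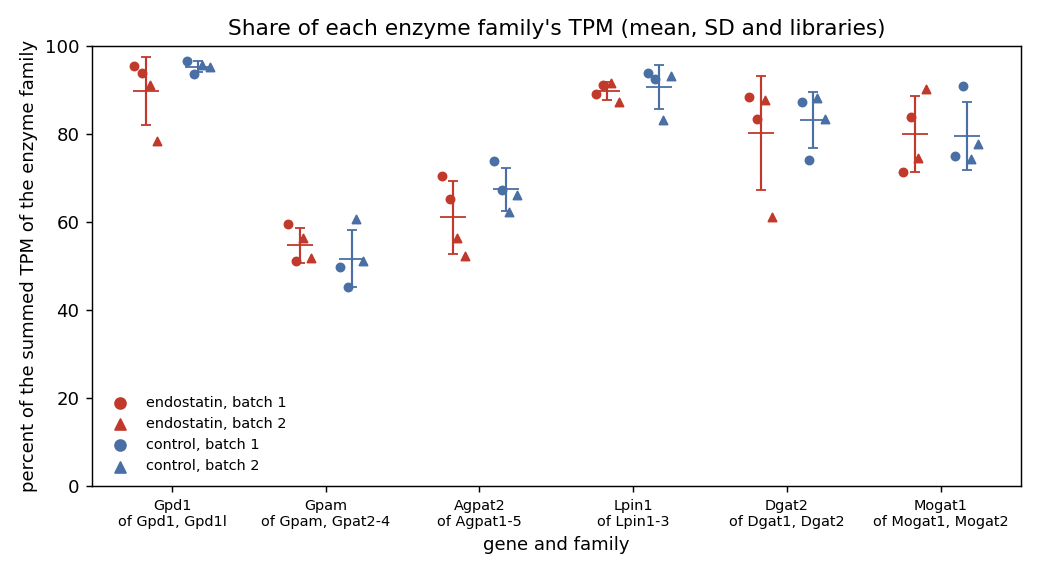
Percent of each enzyme family's summed TPM held by the named gene, with each library as a point, the group mean as a short bar and the SD as a whisker, endostatin left of control. The groups overlap for all 6 shares, and endostatin 4 is the lowest point for Gpd1 (78.4%), Agpat2 (52.3%) and Dgat2 (61.1%).

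Batch was tested in the same fit. Of the 9 members, 0 were higher and 0 lower in batch 2 than in batch 1 after adjustment, where 0.00659% of all tested genes were higher and 0.0329% lower. At an unadjusted p under 0.05, 0 of 9 were higher, against 5.42% of all tested genes, and 1 of 9 was lower, against 4.54%. That member was Agpat2, with 321 and 248 CPM in endostatin and 325 and 561 CPM in control libraries of batch 2, against 513 and 453 CPM in endostatin and 705 and 494 CPM in control libraries of batch 1. Its log2 difference, batch 2 minus batch 1, was -0.60 ± 0.21 (edgeR adjusted p = 0.499). For the interaction of batch with treatment, 0 of 9 members passed after adjustment, against 0% of all tested genes, and 0 of 9 had an unadjusted p under 0.05, against 3.47%.

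The makeup of the transcripts differed between members. Salmon divides reads that several transcripts share, so these values are estimates and were not tested. Dgat2-201 held 95.7% to 98.2% of Dgat2 TPM in endostatin libraries and 96.7% to 98.7% in control libraries. Gpd1-201 held 97.4% to 98.3% in endostatin libraries and 97.1% to 98.2% in control libraries. Transcripts not annotated as protein coding held 23.5% to 38.7% of Dgat1 TPM and 37.5% to 49.8% of Lpin2 TPM. For Dgat2 they held 1.02% to 3.62% and for Lpin1 4.53% to 9.53%. The ratios of Dgat2 to Dgat1 and of Lpin1 to Lpin2 are therefore not ratios of coding RNA alone. Lpin1 was spread over 8 transcripts, with Lpin1-201 holding 33.0% to 45.1% in endostatin libraries and 33.5% to 40.9% in control libraries. Lpin1-204 was listed at 0 in endostatin 1 and 2 and at 16.5 and 14.9 TPM in endostatin 3 and 4, against 11.0 to 23.3 TPM in control libraries. In Mogat1, control 4 stood apart, with 15.3 TPM on Mogat1-202, against 0 to 2.88 TPM in endostatin libraries and 0 to 1.71 TPM in the other control libraries.

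**Figure D5:**
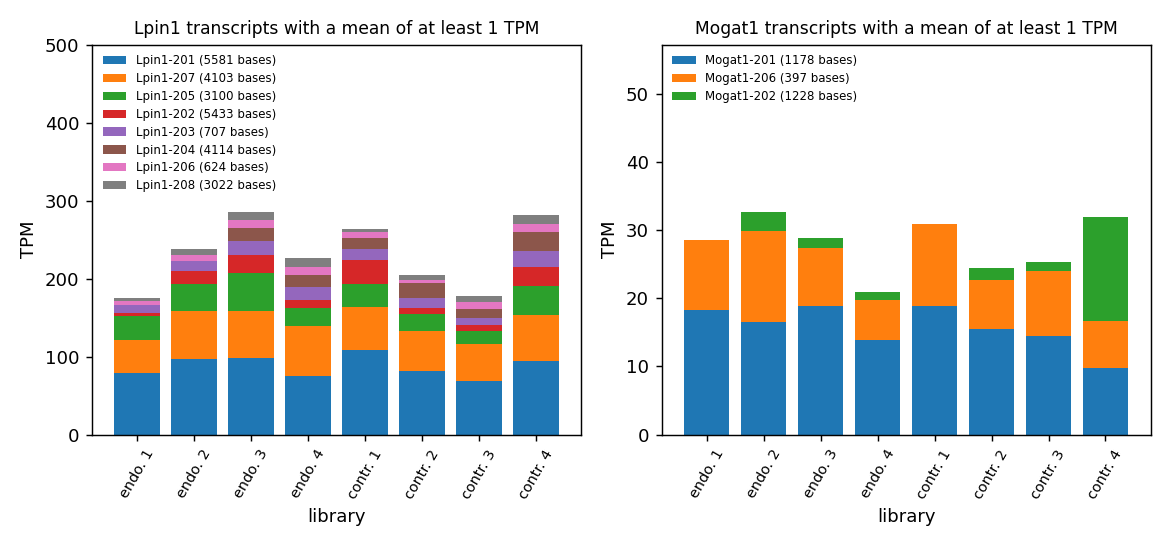
Stacked TPM of the transcripts of Lpin1 (left) and Mogat1 (right) with a mean of at least 1 TPM, in endostatin libraries left of control libraries. Mogat1-202 reaches 15.3 TPM in control 4, and Lpin1-204 is listed at 0 in endostatin 1 and 2.

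The other genes of the pathway gave no calls either. Of 26 other triglyceride assembly genes, 23 were tested, 0 passed in either direction, 4 log2 fold changes were positive and 19 negative, and the median was -0.072. Over all tested genes 7077 were positive and 8108 negative. The smallest p belonged to Acsl3, an acyl-CoA synthetase, with a mean of 10.1 CPM in endostatin and 13.2 CPM in control libraries and a log2 fold change of -0.39 ± 0.18 (SE). Tmem68, an acyltransferase of a minor triglyceride route, followed at -0.23 ± 0.19.

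Of 23 genes of the phospholipid branch, which draws on the same phosphatidic acid and diacylglycerol, 0 passed, 8 were positive and 15 negative, and the median was -0.044. Lpcat3, a lysophospholipid acyltransferase, was at -0.25 ± 0.12 and Etnk1, an ethanolamine kinase, at -0.44 ± 0.29. Of 13 genes of diacylglycerol signalling, 0 passed, 5 were positive and 8 negative, and the median was -0.035. The diacylglycerol kinase Dgkg was at 0.45 ± 0.27 and the diacylglycerol lipase Dagla at -0.16 ± 0.11.

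Of 20 regulators of glycerolipid genes, 0 passed after adjustment, 6 were positive and 14 negative, and the median was -0.049. Esr1, the oestrogen receptor alpha, averaged 228 ± 17.5 CPM in endostatin libraries and 294 ± 36.3 CPM in control libraries (SD, n = 4 each), and it was the 1 gene of these 4 lists with an unadjusted p under 0.05, a threshold that 0.896% of all tested genes passed as lower and 2.3% as higher. Its log2 fold change was -0.36 ± 0.12 (edgeR adjusted p = 1.00). Insig1, which holds back the maturation of SREBP, was at -0.68 ± 0.32.

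The genes whose pattern over the 8 libraries was most like each member's were found by the root mean square difference of log2 CPM, each gene centred on its own mean, among 9988 candidates averaging 10 CPM or more. All points share the same libraries, so this is a description. For Gpd1 they were Slc25a10, the mitochondrial dicarboxylate carrier, at 0.23, and Thrsp, a gene known to respond to thyroid hormone and carbohydrate, at 0.27, where the median over all candidates was 0.91. For Pck1 they were Gpx1, a glutathione peroxidase, at 0.095 and Chrdl1, a secreted BMP antagonist, at 0.13, with a median of 0.54. For Dgat2 they were Ptges, a prostaglandin E synthase, at 0.15 and Nsdhl, an enzyme of cholesterol synthesis, at 0.15, with a median of 0.78. For Agpat2 they were Mdh1, the cytosolic malate dehydrogenase, at 0.10 and Ralgapa2 at 0.13, with a median of 0.48. For Dgat1 they were Met, the receptor of hepatocyte growth factor, at 0.067 and Tmem120a at 0.069, with a median of 0.39. For the other 4 members they were Nmnat3 and Cyp2u1 with Gpam, Creld1 and Ogfod3 with Lpin1, Slc25a12 and Lrp3 with Lpin2, and Zbtb7b and Tmem110 with Mogat1.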

How the data were processed

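Ribosomal RNA-depleted, stranded libraries were sequenced from 8 samples, per the labels' protocols. The authors deposited, per the submitters' processing notes, Salmon output in build GRCm39 (version and index not given in the sources used here): estimated counts and TPM per transcript, with the effective length, another deposited value used for length offsets. Of 115620 transcripts, 113664 (98.31%) matched the GENCODE M21 transcript names, an older release. Each gene's transcripts were added up and the sums rounded to whole counts, and 0.944% to 1.15% of counts lay on unmatched transcripts. Genes were filtered with filterByExpr, scaled by TMM and tested with edgeR 4.0.16 in R 4.3.3 (limma 3.58.1 and DESeq2 1.42.0 as alternatives), and CPM values are TMM-scaled. The members and gene lists were chosen with earlier results of these data known. The text names all 9 members, and from each list the genes with an unadjusted p under 0.05 or, with fewer than 2 of those, the 2 with the smallest p. Step shares, ratios, values per adipocyte marker and the promoter windows shown were chosen after the values were seen. The read-file label of endostatin 4 repeats that of endostatin 3, but their counts differed for 19664 genes. Intervals and floors cover counting error or library spread only. One gene of the pathway lists did not match a symbol.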

Additional observations from a re-analysis of the deposited data

Results flagged for a closer look

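By CPM, the Dgat1 level of control 3 stood apart from its group. It was 142 CPM, the lowest of the 4 control libraries, where the next was 288 CPM, and the gap made up 0.878 of the whole range of the group (Dixon's test at the 95% level). Of 20 sets of 4 library values examined in this way it was the only one with such a value, and chance gives about 1 in 20. Some ratios and shares given above also held a value far from its group. The Pck1 to Dgat2 ratio was 9.26 in endostatin 4, against 0.635 to 1.26 in the other endostatin libraries. The Lpin1 share was 83.3% in control 3, against 92.5% to 93.7% in the other control libraries. The adipocyte marker sum was also lowest in control 3, at 30506 TPM, against 51125 to 59541 TPM in the other control libraries, and its part in the Dgat1 level was not tested.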

How the results depend on the processing

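No member passed the adjusted threshold in any of the 21 alternatives for treatment or 19 for batch. For treatment, an unadjusted p under 0.05 was reached in 5 alternatives for Agpat2, 2 for Gpd1, 2 for Dgat1 and 1 for Lpin2. For batch it was reached in 13 for Agpat2, 4 for Dgat1 and 3 for Lpin2. The treatment sign was kept throughout for Agpat2, Lpin2 (0.015 to 0.28) and Gpd1 (-1.21 to -0.51). Leaving out 1 library at a time gave log2 fold changes, endostatin minus control, of -0.38 to 0.035 for Dgat1, -0.57 to 0.19 for Dgat2, -0.039 to 0.24 for Gpam, -0.31 to 0.053 for Lpin1, -0.0037 to 0.57 for Pck1 and -0.28 to 0.11 for Mogat1. With both of control 3 and endostatin 4 left out, treatment values turned to 0.13 for Dgat2 and -0.17 for Pck1, and batch values to 0.049 for Gpam, 0.27 for Lpin1 and 0.26 for Mogat1. With both of control 1 and control 4 left out, treatment values turned to 0.088 for Dgat1, 0.22 for Dgat2, 0.28 for Lpin1 and 0.20 for Mogat1. Batch values (batch 2 minus batch 1) turned with library size only, to 0.070 for Lpin1 and 0.037 for Mogat1, and with scaling to the adipocyte markers, to 0.10 for Gpam, 0.20 for Lpin1 and 0.16 for Mogat1. The median of all genes there moved to 0.13 with library size only and 0.32 with the adipocyte markers. Lpin1 turned to 0.030 with effective length offsets and 0.13 with log2(TPM + 1), and leaving out 1 library gave -0.18 to 0.17 for Lpin1 and -0.29 to 0.080 for Mogat1. Over all genes, DESeq2 called 4 for treatment, 171 for batch and 28 for the interaction, where edgeR called 0, 6 and 0. The batch count was 2 with library size only, 11 with no low-count filter, 10 with limma-voom, 27 without control 3 and endostatin 4, 0 without control 1 and control 4, and 0 to 18 leaving out 1 library. The interaction count was 5 with scaling to the adipocyte markers. The cause was not tested. With the replicate number as a block, 0 genes were called for treatment. The same-number correlations were 0.211, 0.144, -0.0731 and -0.295. They were taken on deviations from the group means with batch left in, so they cannot settle whether the numbers pair the libraries. Among the 9997 genes averaging 10 CPM or more, the 95% interval, not adjusted for multiple tests, reached a median of 0.30 to either side on the log2 scale.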
